A study of Homo sapiens with 4 samples.

Results

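The inhibitors of cyclin-dependent kinases (CDKs) were followed through a TTF-1 knockdown in 2 lines of human small cell lung cancer. The set holds the CIP/KIP genes CDKN1A, CDKN1B and CDKN1C and the INK4 genes CDKN2A, CDKN2B, CDKN2C and CDKN2D, 7 in all. They were chosen by family membership, but with earlier results of these data known. Every Affymetrix probe set that the platform annotation pairs with 1 of these symbols alone was taken. That gave 14 of the 54613 probe sets other than array controls, for 6 of the 19775 genes with such a probe set. CDKN2C was not analysed here. The groups were Lu139 cells given siRNAs against TTF-1 (siTTF-1), Lu139 cells given control siRNAs (siNTC), NCI-H209 cells given siTTF-1 and NCI-H209 cells given siNTC, all by electroporation. Both are established cell lines. TTF-1 is the homeodomain transcription factor encoded by NKX2-1. Each of the 4 groups is 1 array, so a difference within a line has no replicate check and the 2 lines are the sole replication of the siRNA effect. Whether the arrays come from separate cultures is not stated, so p-values measure only how these arrays scatter, which may be technical. The sources used here do not give the time from electroporation to RNA collection or the number and sequences of the siRNAs.

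Progress from G1 into S phase is driven by cyclin D with CDK4 or CDK6 and by cyclin E with CDK2, which phosphorylate RB and so release the E2F transcription factors. INK4 proteins bind CDK4 and CDK6 and keep them from cyclin D, whereas CIP/KIP proteins bind whole cyclin-CDK complexes, those of CDK2 above all. Small cell lung cancer usually lacks functional RB and p53. RB-deficient tumours often hold high levels of p16, the INK4 product of CDKN2A, and p21, the product of CDKN1A, is the best known target of p53 but is also induced without it.

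The array facts that bear on the set are few. Levels are linear intensities per probe set, as deposited, and differences are on the scale of log2(intensity + 18.7), which understates changes of dim probe sets. A probe set was taken as above the expression limit where its mean exceeded an intensity of 36.9. The median intensity was 49.6 and 48.4 on the siTTF-1 and siNTC arrays of Lu139, and 57.7 and 56.6 on those of NCI-H209. NKX2-1 itself was at 59.1% of control after siTTF-1 in Lu139 and at 40.7% in NCI-H209 on 211024_s_at, and at 55.3% and 64.6% on 210673_x_at. All 8 measured neuroendocrine markers, among them CHGA, INSM1 and UCHL1, exceeded the limit in both lines. Their intensities summed to 26548 and 24540 on the siTTF-1 and siNTC arrays of Lu139, and to 34437 and 37246 on those of NCI-H209. Of the 5 fibroblast markers, 2 exceeded the limit, COL1A1 and DCN, with sums over the list of 382 to 495 over the 4 arrays. Of the 5 blood markers, 3 did, CD3E, CD14 and HBB, with sums of 255 to 290, while PTPRC lay between 9.78 and 11.3. Their part in the results was not tested. In bulk RNA, fewer cells that express a gene and less RNA per cell cannot be told apart. Exactly equal intensities occurred within a line, for 2206 probe sets in Lu139 and 2416 in NCI-H209.

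CDKN1A, which encodes p21, was the member with a higher signal after siTTF-1 in both lines by more than 2-fold. Its probe set 202284_s_at read 681 after siTTF-1 and 329 with siNTC in Lu139. In NCI-H209 it read 1580 after siTTF-1 and 483 with siNTC. Both siTTF-1 arrays lay above both siNTC arrays, which held for 7.59% of all probe sets tested, and the siTTF-1 array of NCI-H209 stood highest. The intensity after siTTF-1 was 207% of control in Lu139 and 327% in NCI-H209. On the log2 scale the differences were 1.01 and 1.67, a mean of 1.34 (SD 0.47, n = 2 lines). The gap between the lines was not tested, since each line has 1 array per siRNA.

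By size, the probe set ranked 2 from the highest of 31347 above the limit in Lu139 and 3 of 33231 in NCI-H209. A 2-fold higher signal was found for 0.00638% of probe sets in Lu139 and 0.147% in NCI-H209. Of the 29032 probe sets above the limit in both lines, it was the 1 that was 2-fold higher in both, 0.00344% of them. In the fit across lines its mean difference was the highest of the 32768 probe sets tested. limma gave a 95% interval of 0.95 to 1.72, an unadjusted p of 7.75e-05 and an adjusted p of 0.104. This was the smallest adjusted p of the table, and 55 probe sets shared it, 9 of them higher and 46 lower after siTTF-1. At an adjusted p under 0.05, limma called 0 probe sets in either direction (0%), against 4972 at an unadjusted p under 0.05 (15.2%), of which 1928 were higher (5.88%) and 3044 lower (9.29%). The 2-fold call in Lu139 lies at its threshold, because with a doubled pseudocount the difference there was 0.97. CDKN1A is read by 1 probe set here, and no other probe set could be set beside it.

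**Figure D1:**
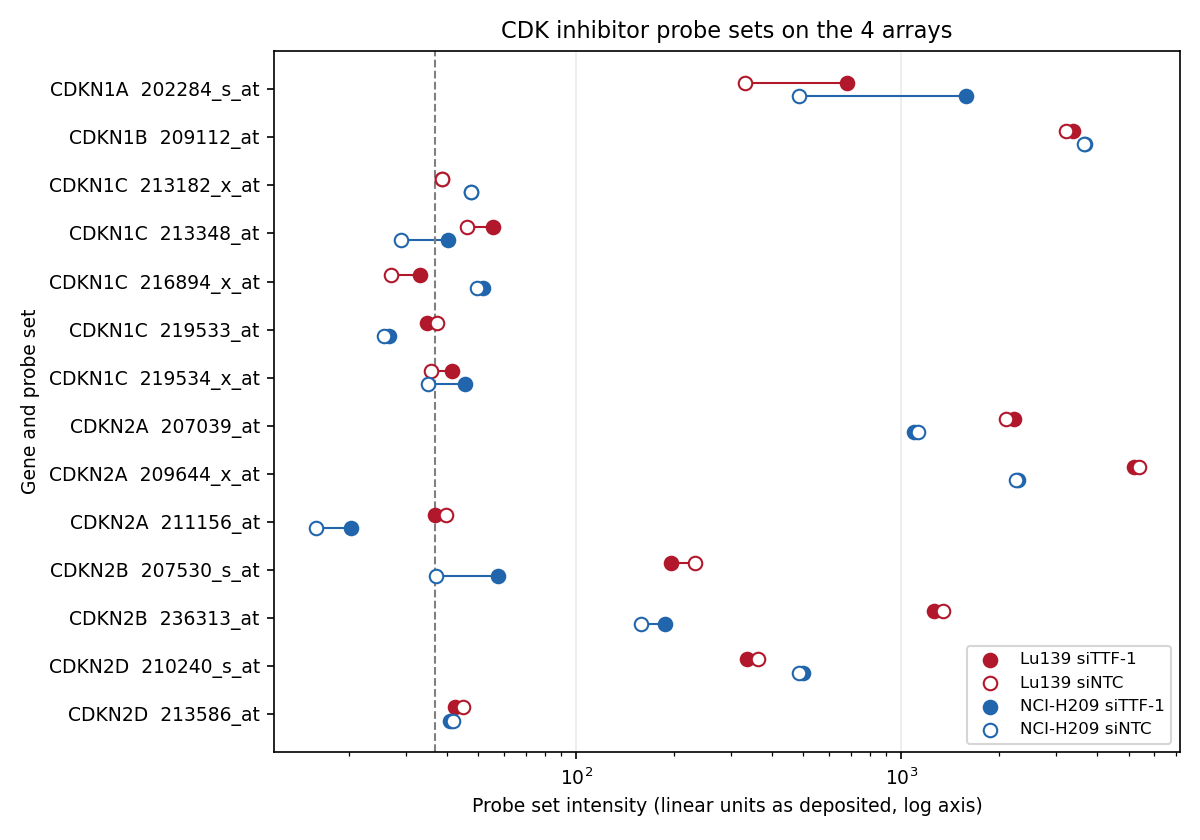
Intensity of each of the 14 CDK inhibitor probe sets (log axis, linear units as deposited) on the 4 arrays, with siTTF-1 as filled and siNTC as open circles joined by a line for each cell line. The dashed line is the expression limit of 36.9, and levels may be compared within a probe set and not between probe sets. CDKN1A shows the widest gaps among bright probe sets, at 681 and 329 in Lu139 and at 1580 and 483 in NCI-H209.

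The sequence before 1 start of CDKN1A is shown because this gene carries the siRNA result. It covers chr6:36678464-36678713 on the plus strand of GRCh38.p14, from RefSeq, the 250 bases up to that start of transcription. The RefSeq gene begins further upstream, at chr6:36676463, and no window before that position is shown. Capitals mark matches on either strand to GGGCGG, the GC box bound by Sp1 factors, and to CAAG, the core of many TTF-1 sites.
CDKN1A: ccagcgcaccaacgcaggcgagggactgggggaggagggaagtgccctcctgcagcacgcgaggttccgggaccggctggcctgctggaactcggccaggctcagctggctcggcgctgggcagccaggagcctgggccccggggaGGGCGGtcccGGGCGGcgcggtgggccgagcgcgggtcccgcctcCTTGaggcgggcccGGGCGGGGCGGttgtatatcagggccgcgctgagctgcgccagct
The window holds 4 matches to GGGCGG, 2 of them overlapping, and 1 to CAAG, with no overlap between the motifs. Of 35116 windows of the same length, 7.63% held at least 4 matches to GGGCGG and 80.9% held CAAG. Its GC content was 76.4%, against a median of 58.0% over all windows. A match of letters is not a binding site.

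CDKN1B and CDKN1C, the other CIP/KIP genes, had no change of that size. CDKN1B encodes p27, whose amount is set mostly by protein degradation. Its probe set 209112_at read 3373 after siTTF-1 and 3208 with siNTC in Lu139, and 3679 and 3654 in NCI-H209. The 4 values lay close together, and the siRNA groups overlapped. The log2 differences were 0.07 in Lu139 and 0.01 in NCI-H209, and the limma interval of the mean ran from -0.13 to 0.21 (adjusted p = 0.804).

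CDKN1C encodes p57, an imprinted inhibitor of embryonic and differentiating tissues. Its 5 probe sets were all near the expression limit, between 25.6 and 55.6 on every array, and 4 of them exceeded it on the mean of the 4 arrays. The probe set 213348_at read 55.6 after siTTF-1 and 46.0 with siNTC in Lu139, and 40.5 and 29.0 in NCI-H209. Each siTTF-1 array was above the siNTC array of its line, but the siRNA groups overlapped. The log2 differences were 0.20 and 0.31, a mean of 0.26 (SD 0.081, n = 2 lines, limma adjusted p = 0.27). On 219534_x_at, whose suffix marks probes that may cross-hybridise, they were 0.15 in Lu139 and 0.26 in NCI-H209 (limma adjusted p = 0.343). On 216894_x_at they were 0.18 and 0.05 (limma adjusted p = 0.564). The same suffix is on 216894_x_at and 213182_x_at, on 209644_x_at of CDKN2A and on 210673_x_at of NKX2-1. On 213182_x_at the deposited values of a line were exactly equal, 38.6 on both Lu139 arrays and 47.5 on both NCI-H209 arrays. On 219533_at, which was not tested, the differences were -0.06 in Lu139 and 0.03 in NCI-H209. So 3 of the 5 probe sets were higher after siTTF-1 in both lines, and none passed limma.

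The INK4 genes were also without a change past the test. CDKN2A gives p16 and, from another first exon and reading frame, the MDM2 inhibitor ARF, and the annotation does not say which transcript a probe set reads. On 209644_x_at it read 5185 after siTTF-1 and 5369 with siNTC in Lu139, and 2280 and 2256 in NCI-H209. On 207039_at it read 2218 and 2106 in Lu139, and 1092 and 1124 in NCI-H209. The arrays of a line lay together and the siRNA groups overlapped on both probe sets. The limma intervals of the siRNA effect ran from -0.18 to 0.15 on 209644_x_at (adjusted p = 0.924) and from -0.20 to 0.23 on 207039_at (adjusted p = 0.946). The third probe set, 211156_at, was dim, with 36.8 and 39.7 in Lu139 and 20.3 and 15.8 in NCI-H209 after siTTF-1 and with siNTC.

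CDKN2B encodes p15, the inhibitor induced by TGF-beta in epithelial cells. On 236313_at it read 1263 after siTTF-1 and 1347 with siNTC in Lu139, against 188 and 158 in NCI-H209. On 207530_s_at it read 196 and 233 in Lu139, and 57.4 and 37.1 in NCI-H209. Both probe sets were lower after siTTF-1 in Lu139 and higher in NCI-H209. Their log2 differences were -0.09 and -0.23 in Lu139 and 0.22 and 0.45 in NCI-H209. None of these 4 differences reached 1.5-fold on the scale with the pseudocount, and the limma adjusted p across lines was 0.82 and 0.768.

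CDKN2D encodes p19, the INK4 protein that peaks in S phase. On 210240_s_at it read 335 after siTTF-1 and 363 with siNTC in Lu139, and 498 and 486 in NCI-H209, with overlapping siRNA groups. The log2 differences were -0.11 and 0.04 (limma adjusted p = 0.893). On the dim probe set 213586_at it read between 40.9 and 44.9 on the 4 arrays (limma adjusted p = 0.849).

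Past 1.5-fold in either direction on the log2(intensity + 18.7) scale, 1 member probe set was found among the 12 above the limit in Lu139, against 1.77% of all probe sets there. In NCI-H209 it was 1 of 11, against 4.63%. In both lines that probe set was the one of CDKN1A. In plain intensity the dim CDKN2B probe set 207530_s_at also passed 1.5-fold in NCI-H209, at 1.55-fold. Of the 12 member probe sets tested across lines, 5 were higher in both lines after siTTF-1, 1 was lower in both and 5 had opposite signs, against 35.1%, 27.6% and 33.2% of all probe sets tested. Differences under 0.3 on the log2 scale in both lines held for 9 of the 12, against 74.1%, so most members moved about as much as most of the array.

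**Figure D2:**
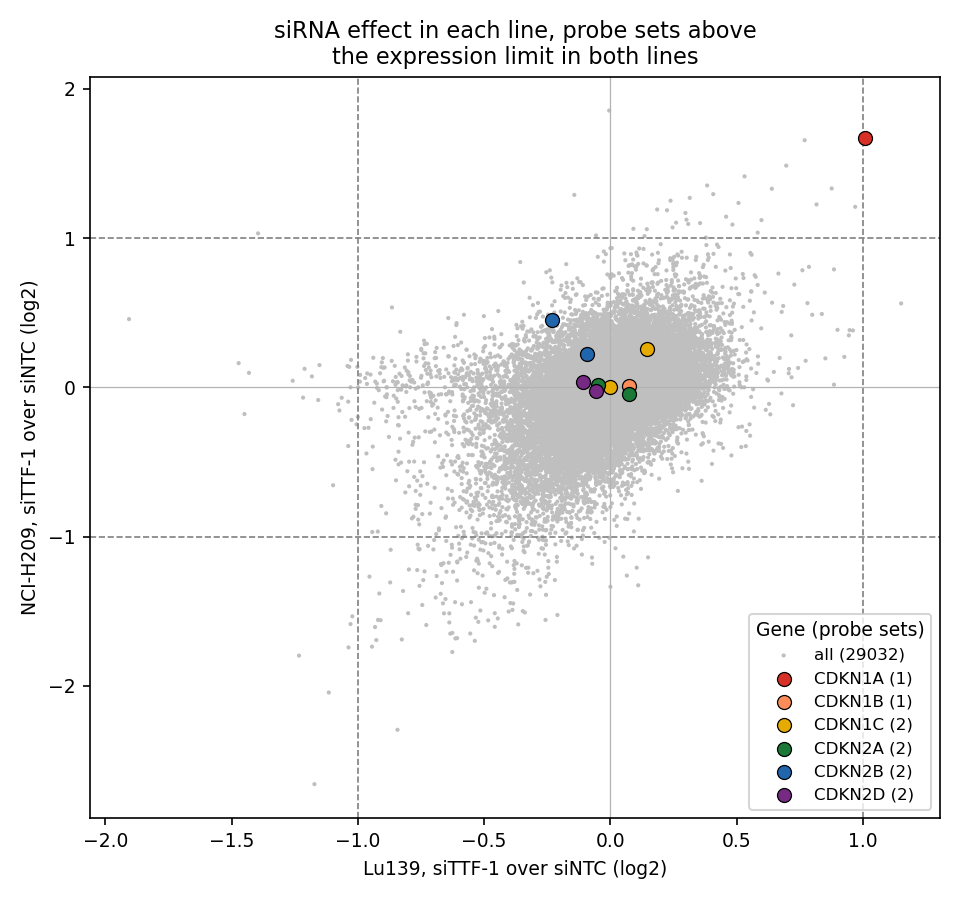
Log2 difference of siTTF-1 over siNTC in Lu139 (horizontal) and NCI-H209 (vertical) for the 29032 probe sets above the expression limit in both lines (grey), with the CDK inhibitor probe sets in colour. Dashed lines mark 2-fold. CDKN1A lies at 1.01 and 1.67, past 2-fold in both, and the 2 CDKN2B probe sets lie on the other side of 0 in each line.

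The levels of CDKN2A and CDKN2B differed by more between the lines than after siTTF-1 in either line. CDKN2B and CDKN2A were higher in Lu139 than in NCI-H209 on every probe set, whichever siRNA was used. The 2 arrays of a line differ in siRNA, so the line difference has no replicate arrays either. Its limma intervals and p-values rest mostly on variances borrowed across probe sets. On 236313_at CDKN2B averaged 1305 in Lu139 and 173 in NCI-H209 over the 2 arrays of each line, a log2 difference of 2.79 (limma 95% interval 2.5 to 3.08, adjusted p = 2.85e-06). On 207530_s_at it averaged 214 and 47.2, a log2 difference of 1.83 (1.45 to 2.22, limma adjusted p = 5.64e-05). Both Lu139 arrays exceeded both NCI-H209 arrays on each probe set, as for 25.1% of all probe sets tested.

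CDKN2A averaged 5277 in Lu139 and 2268 in NCI-H209 on 209644_x_at, a log2 difference of 1.21 (1.04 to 1.38, limma adjusted p = 8.81e-06). The suffix of that probe set marks probes that may cross-hybridise. On 207039_at CDKN2A averaged 2162 and 1108, a log2 difference of 0.95 (0.74 to 1.17, limma adjusted p = 7.95e-05). The line groups did not overlap on either, with both Lu139 arrays higher, as for 25.1% of all probe sets tested. On the dim 211156_at it averaged 38.3 and 18.1, a log2 difference of 0.63, untested because its mean lay under the limit. Among the 32768 probe sets tested, those of CDKN2B ranked 153 and 447 and those of CDKN2A 1117 and 1789 from the highest in Lu139.

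The other members differed less between the lines. CDKN1A averaged 505 in Lu139 and 1031 in NCI-H209, a log2 difference of -0.86 (limma adjusted p = 0.0026). The line groups overlapped, and the difference was -1.19 between the siTTF-1 arrays and -0.53 between the siNTC arrays. CDKN2D averaged 349 and 492 on 210240_s_at, a log2 difference of -0.47 (limma adjusted p = 0.00694), and differed by 0.05 on 213586_at (limma adjusted p = 0.606). CDKN1B averaged 3290 in Lu139 and 3667 in NCI-H209, a log2 difference of -0.16 (limma adjusted p = 0.0859). The CDKN1C probe sets disagreed, since 213348_at was higher in Lu139 (0.38, limma adjusted p = 0.00705) and 216894_x_at lower (-0.51, limma adjusted p = 0.00185), each below the limit in the line where it was lower.

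Much of the array differed between the lines, so a call alone says little about the members. limma called 68% of the probe sets tested at an adjusted p under 0.05 (19.2% higher and 48.8% lower in Lu139), and 8 of the 12 member probe sets, 5 higher and 3 lower. The median difference of all probe sets was -0.25, and with quantile normalization over the 4 arrays it was 0.05. The higher share among the calls was 28.3% with values as deposited and 53.4% after quantile normalization, which called 66.9% (35.7% higher and 31.2% lower in Lu139). Relative to that shift CDKN2A and CDKN2B stayed higher in Lu139. Their quantile normalized differences were 1.65 on 209644_x_at, 1.40 on 207039_at, 3.21 on 236313_at and 2.14 on 207530_s_at. CDKN1A was then at -0.40 (limma adjusted p = 0.0541) and CDKN2D at -0.02 on 210240_s_at (limma adjusted p = 0.884), both no longer called. CDKN1B turned to 0.29, higher in Lu139 (limma adjusted p = 0.00662).

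**Figure D3:**
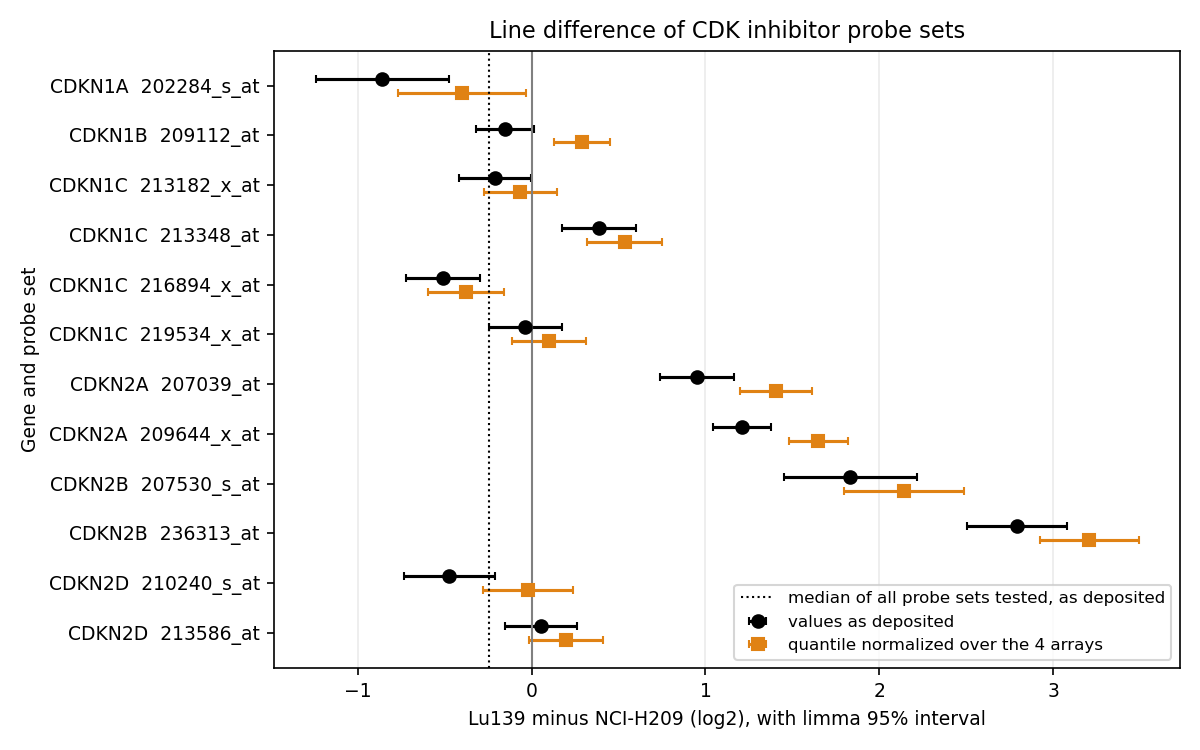
Log2 difference of Lu139 minus NCI-H209 with its limma 95% interval for the 12 CDK inhibitor probe sets tested, with values as deposited (black circles) and after quantile normalization over the 4 arrays (orange squares). The dotted line is the median of all probe sets tested, -0.25. The CDKN2A and CDKN2B probe sets lie above 0.7 at the lower end of every interval, and CDKN1B changes side with the scaling.

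The sequences before the starts of these INK4 neighbours on chromosome 9 are shown because they carry the line difference. They are from RefSeq on GRCh38.p14, each 250 bases on the minus strand, with capitals as above. The windows are chr9:21995325-21995574 before the first exon of ARF, chr9:21974858-21975107 before that of p16 and chr9:22009306-22009555 before CDKN2B.
CDKN2A (ARF start): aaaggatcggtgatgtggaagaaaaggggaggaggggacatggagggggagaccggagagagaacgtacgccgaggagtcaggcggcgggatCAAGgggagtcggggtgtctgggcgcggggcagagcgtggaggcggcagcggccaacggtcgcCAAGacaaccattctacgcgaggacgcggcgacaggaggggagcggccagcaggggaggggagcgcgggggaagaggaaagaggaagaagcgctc
CDKN2A (p16 start): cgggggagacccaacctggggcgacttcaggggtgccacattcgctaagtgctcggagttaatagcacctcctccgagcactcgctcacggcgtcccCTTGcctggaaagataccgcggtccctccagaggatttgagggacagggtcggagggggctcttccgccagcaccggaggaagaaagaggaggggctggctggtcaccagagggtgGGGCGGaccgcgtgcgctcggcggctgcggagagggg
CDKN2B: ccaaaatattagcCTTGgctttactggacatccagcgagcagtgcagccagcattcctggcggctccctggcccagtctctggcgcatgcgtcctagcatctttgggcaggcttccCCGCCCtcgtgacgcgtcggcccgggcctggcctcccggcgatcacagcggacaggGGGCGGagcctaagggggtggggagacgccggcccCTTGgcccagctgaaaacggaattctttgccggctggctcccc
They held 0, 1 and 2 matches to GGGCGG and 2, 1 and 2 to CAAG. Over all windows, 42.6% held GGGCGG and 24.3% held at least 2 matches to it. For CAAG these shares were 80.9% and 52.1%. Their GC content was 66.8%, 66.8% and 66.4%. The CDKN1B window held 1 match to GGGCGG and 0 to CAAG, and that of CDKN2D 2 and 0. So a match to CAAG was found before 3 of the 5 member genes with a window, while 80.9% of all windows held it. The first counts genes, CDKN2A having 2 windows, and the other counts windows, so they are not a like comparison. CDKN1C is not among these windows.

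Genes that lie near CDKN2A and CDKN2B were read in the same way. MTAP, an enzyme of methionine salvage, was also higher in Lu139, with a log2 difference of 1.07 (limma adjusted p = 2.36e-04) and of 1.53 after quantile normalization. DMRTA1 read 67.9 and 87.4 on the siTTF-1 and siNTC arrays of Lu139 and was below the limit in NCI-H209 (33.1 and 27), while KLHL9, a substrate adaptor of a ubiquitin ligase, was lower, at -1.55 (limma adjusted p = 1.18e-05). The antisense transcript CDKN2B-AS1 lay between 6.32 and 8.39 on the 4 arrays. After siTTF-1, MTAP differed by 0.03 in Lu139 and -0.33 in NCI-H209 and KLHL9 by -0.13 in each. None of the 3 genes tested passed the siRNA test, and CDKN2B-AS1 was too dim to be tested.

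Between the lines, limma called 3 of 10 tested genes of the list of G1 cyclins and kinases higher and 5 lower in Lu139. It called 4 of 13 RB family and E2F genes higher and 6 lower, against the 68% of all probe sets called. The list of G1 cyclins and kinases also holds CCNA1, CCNA2 and CDK1, which are not G1 genes. CCNA1 was among those called higher, and CCNA2 and CDK1 were among those called lower. The following genes were singled out after their values were seen. RB1 read 114 and 111 on the siTTF-1 and siNTC arrays of Lu139, and 2053 and 1999 on those of NCI-H209, a log2 difference of -3.96 between the lines (limma adjusted p = 6.66e-07). CCND2, a D-type cyclin, read 1930 and 1637 in Lu139 and CDK6 read 145 and 130. In NCI-H209 both were below the expression limit, CCND2 at 18 and 15.2 and CDK6 at 30.1 and 31.1, so no size is given for their differences. CDK4 differed by -0.14 (limma adjusted p = 0.0897), or by 0.28 after quantile normalization (limma adjusted p = 0.00409).

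Partners of the inhibitors were then followed after siTTF-1 in 8 gene lists, on the brightest probe set of each gene. Given are the 3 genes of each list with the largest mean differences among those above the limit in both lines. CDK2, CDK4, RB1, GADD45A, MDM2, MYC, HDAC1 and HDAC2 are also named, picked after their values were seen. No list had a gene that passed limma at an adjusted p under 0.05. Over the 13313 genes above the limit in both lines, 37.7% were higher and 27.5% lower in both, with medians of 0.03 in Lu139 and 0.01 in NCI-H209. Of the list of G1 cyclins and kinases, which also holds CCNA1, CCNA2 and CDK1, 8 genes were above the limit in both lines. Of these 8, 5 were higher and 1, CCNA1, lower in both, with medians of 0.06 in Lu139 and 0.03 in NCI-H209. CCNE1, the cyclin partner of CDK2, had 0.19 in Lu139 and 0.63 in NCI-H209 (limma adjusted p = 0.253). CCNA1 had -0.36 and -0.18, and CCND3 0.07 and 0.20. CDK2 itself differed by 0.06 and 0.03, and CDK4 by 0.09 and 0.04.

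Of the 13 RB family and E2F genes, 6 were higher and 6 lower in both lines, with medians of -0.05 in Lu139 and 0.04 in NCI-H209. E2F6, a repressor, had 0.32 and 0.48 (limma adjusted p = 0.186). RBL1, which encodes p107, had -0.38 and -0.39 (limma adjusted p = 0.181), and E2F8, an atypical E2F, had -0.16 and -0.67. RB1 differed by 0.04 in each line. Among 20 E2F target genes, 4 were higher and 10 lower in both, with medians of -0.03 and -0.14. POLA1, of DNA polymerase alpha, had -0.34 and -0.63 (limma adjusted p = 0.171), and CDC6, a licensing factor of replication, had -0.16 and -0.39. CCNE1, which is also on this list, was higher, with 0.19 in Lu139 and 0.63 in NCI-H209 (limma adjusted p = 0.253). At an unadjusted p under 0.05, limma gave 1 of the 20 higher and 3 lower, against 5.88% and 9.29% of all probe sets. Here and below, these shares count every probe set tested, whereas a list takes the brightest of each gene. They are therefore not a like background. By the same limma count, 1 of 10 genes of the list of G1 cyclins and kinases was higher, CCNE1, and 1 lower, CCNA1. Of the 13 RB family and E2F genes, 1 was higher and 3 lower.

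Genes of the p53 response other than CDKN1A gave mixed values. A value was had for 23 of 27, and of the 20 above the limit in both lines 11 were higher and 6 lower in both, with medians of 0.05 in Lu139 and 0.09 in NCI-H209. GDF15, a secreted stress cytokine, had 0.30 in Lu139 and 1.17 in NCI-H209 (limma adjusted p = 0.194). MDM4, an inhibitor of p53, had -0.42 and -0.61 (limma adjusted p = 0.14), and RRM2B, a ribonucleotide reductase subunit, -0.30 and -0.66. GADD45A had 0.28 and 0.54, and the p53 ubiquitin ligase gene MDM2 had 0.13 and 0.21. At an unadjusted p under 0.05, limma gave 4 of the 20 tested higher and 3 lower, against 5.88% and 9.29% of all probe sets.

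Transcription factors known to act on the CDKN1A promoter followed, with 26 of 29 measured. This list also holds the histone deacetylases HDAC1 and HDAC2, which are not transcription factors. Of the 23 above the limit in both lines, 13 were higher and 4 lower in both, with medians of 0.12 in Lu139 and 0.08 in NCI-H209. KLF4, an activator of CDKN1A, read 419 after siTTF-1 and 233 with siNTC in Lu139, and 2670 and 1901 in NCI-H209 (log2 differences 0.80 and 0.49, limma adjusted p = 0.127). CEBPB had 0.57 and 0.50 (limma adjusted p = 0.119), and the stress-induced factor gene ATF3 had 0.40 and 0.63 (limma adjusted p = 0.152). MYC, a repressor of CDKN1A, read 10039 and 10030 in Lu139 and 11.9 and 10.6 in NCI-H209, so it was above the limit in Lu139 alone. At an unadjusted p under 0.05, limma gave 5 of the 26 tested higher and 2 lower, against 5.88% and 9.29% of all probe sets. The 2 lower were HDAC1 and HDAC2.

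The last lists hold the ubiquitin ligases that degrade CIP/KIP proteins and the regulators of INK4 chromatin. Of the 14 ligase genes and partners, 6 were higher and 7 lower in both lines, with medians of 0.00 in Lu139 and -0.11 in NCI-H209. DTL, the CUL4 adaptor that targets p21, had -0.17 and -0.60 (limma adjusted p = 0.246), CUL1 -0.10 and -0.31, and UBAC1 0.05 and 0.41. Of the 13 Polycomb and INK4 regulators above the limit in both lines, 2 were higher and 6 lower in both, with medians of 0.01 and -0.09. EZH2, the methyltransferase of Polycomb repressive complexes, had -0.04 and -0.35, PHC2 -0.05 and -0.35, and ETS1 -0.05 and -0.22. At an unadjusted p under 0.05, limma gave 0 of the 14 ligase genes and partners higher and 1 lower. It gave 0 higher and 0 lower of the 14 Polycomb and INK4 regulators tested. The same held for the 3 genes tested near CDKN2A and CDKN2B.

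**Figure D4:**
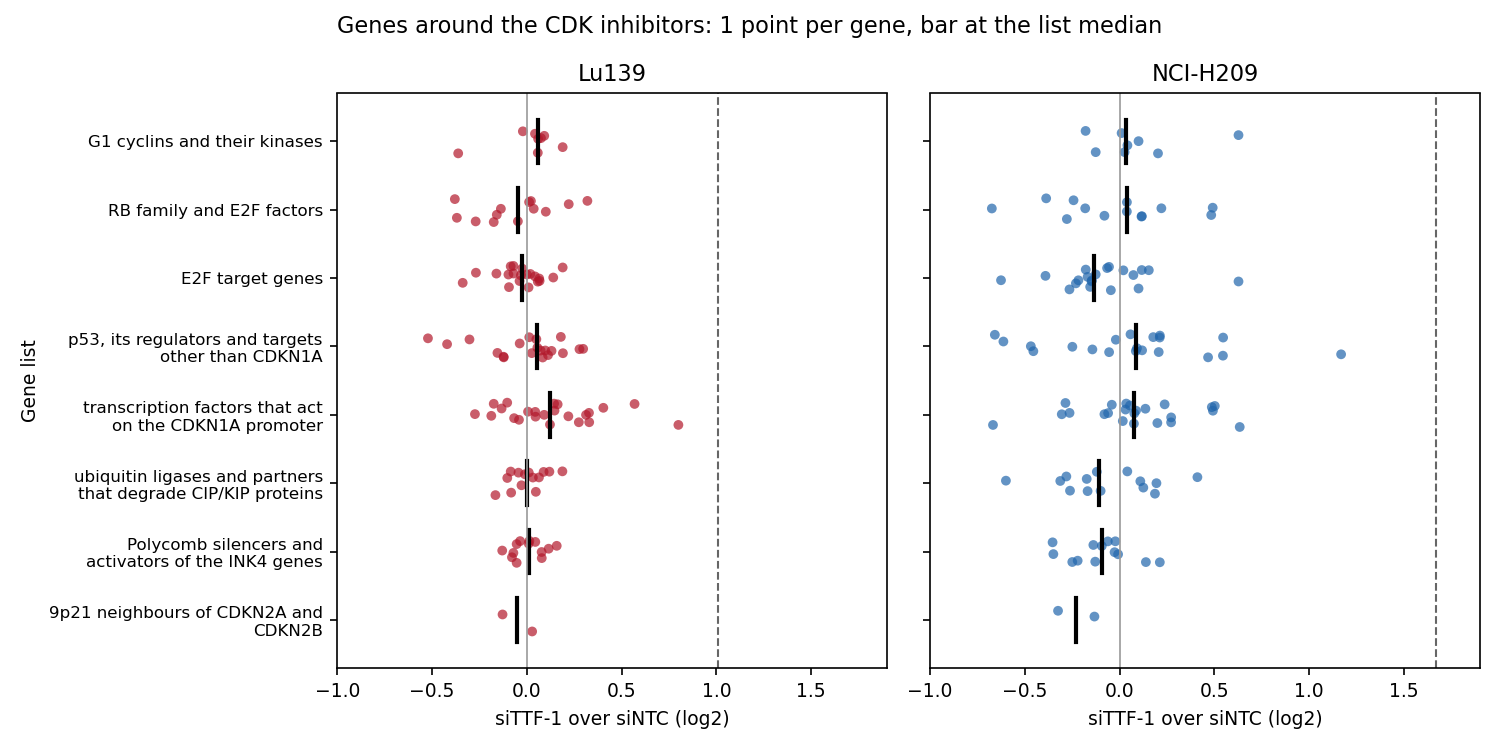
Log2 difference of siTTF-1 over siNTC for the genes of 8 lists in Lu139 (left) and NCI-H209 (right), 1 point for each gene above the expression limit in both lines, with a bar at the list median. The dashed line is CDKN1A, at 1.01 in Lu139 and 1.67 in NCI-H209. Every gene of the lists lies to the left of it in both lines, GDF15 coming nearest in NCI-H209 (1.17) and KLF4 in Lu139 (0.80).

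The genes with profiles most like those of the members were found by the Euclidean distance of centred log2 values over the 4 arrays, among 14553 genes. Nearest to CDKN1A were REEP3 at a distance of 0.394, with 0.82 in Lu139 and 1.22 in NCI-H209 after siTTF-1, HMOX1 at 0.54 and PPP2R1B at 0.558. CDKN2B was nearest to TEX15 (0.124), NRXN2 (0.13) and RCAN2 (0.152), and CDKN2A to EFNA5 (0.0359), ZNF581 (0.0426) and DNTTIP1 (0.0427). For CDKN1B they were XPO1, SEC22C and CSPG4P1Y at up to 0.0165, and for CDKN2D MELTF-AS1, IPO13 and METTL18 at up to 0.0278. For CDKN1C they were FLJ12825, SRL and RPL6 at up to 0.0156. That profile is of the dim 213182_x_at, whose values were exactly equal within each line, and not of its other probe sets. With 4 arrays, short distances arise easily for flat profiles, and the distances to CDKN1A were the longest of the 6 members.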

How the data were processed

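Affymetrix arrays were hybridised with biotinylated cRNA made from total RNA, as the labels' protocols state. The authors deposited a linear intensity for each probe set and array. The submitters' processing notes name Affymetrix Expression Console. Its version, summarisation and normalization are not given in those sources. Equal values were counted within each line and not between lines, and the scaling between lines is uncertain. Gene symbols were brought up to date with a RefSeq table of GRCh38.p14, for 41037 of the 41091 probe sets with 1 symbol. A further 1801 had several symbols and 11721 none.

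Expression was log2(intensity + 18.7), the pseudocount being the 25th percentile over the table. The limit, 5.8 on this scale, was the 40th percentile of probe set means. limma 3.58.1 in R 4.3.3 fitted line and siRNA to the 4 arrays over 32768 probe sets, with a variance trend, 1 residual and 5.96 prior degrees of freedom, two-sided tests and Benjamini-Hochberg adjustment. The number of arrays limits the precision. Within a line, differences were read by size. The fit was tested on simulated data. False calls stayed near the nominal rate with variances drawn from limma's own prior. They were well above it in the second setting, with noise at each probe set's fitted variance. The p-values therefore rest on variances borrowed across probe sets. Named by rule were all members, NKX2-1 and the 3 nearest profiles of each member. So were the 3 genes of each list with the largest mean difference among those above the limit in both lines. Further genes, among them CDK2, CDK4, CDK6, CCND2, RB1, GADD45A, MDM2 and MYC, were picked after their values were seen. Every gene of the list near CDKN2A and CDKN2B was also given. The members and lists were chosen with earlier results of these data known. Figures used matplotlib 3.10.9 in Python 3.11.15. Alternatives were the pseudocount, filter, normalization, probe set choice, line term, variance prior and arrays used.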

Additional observations from a re-analysis of the deposited data

Results flagged for a closer look

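Member probe sets above the expression limit in both lines were listed where siTTF-1 went one way in Lu139 and the other way in NCI-H209. With 1 array per siRNA and line, the difference between the lines was not tested. CDKN2B had the widest gap, with -0.23 in Lu139 and 0.45 in NCI-H209 on 207530_s_at, and -0.0916 and 0.22 on 236313_at. CDKN2D had -0.11 and 0.0352 on 210240_s_at. CDKN2A had 0.0739 and -0.0418 on 207039_at, and -0.0501 and 0.0155 on 209644_x_at, so its probe sets took opposite orders. Such opposite signs were found for 33.2% of all probe sets tested.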

How the results depend on the processing

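Under 11 alternatives limma called 0 probe sets higher and 0 lower after siTTF-1 across lines at an adjusted p under 0.05, and for CDKN1A its adjusted p ran from 0.0565 to 1, the highest with no line term, with a mean log2 difference of 1.30 to 1.37. Of 444 member values, 434 kept their direction and their side of the threshold. In Lu139 CDKN1A fell short of 2-fold with a doubled pseudocount (0.97). Quantile normalization over the 4 arrays reversed the line difference of CDKN1B (0.29) and of CDKN1C on 219534_x_at (0.10), and ended the line calls of CDKN1A (-0.40) and CDKN2D (-0.02). The siRNA mean of CDKN2D on 210240_s_at turned to 0.0064 with it and to 0.0052 with quantile normalization within each line, and that of CDKN2A to 0.017 when its probe sets were averaged. Without a filter, CDKN2A 211156_at (0.63) and CDKN1C 219533_at (0.29) passed between lines. The cause was not tested. Of 70 counts over the whole array, 19 moved by over 1.5 times. In Lu139 the main counts of 2 higher and 52 lower became 82 lower with a halved pseudocount, 1 higher and 29 lower with a doubled one, 4 higher with quantile normalization over the 4 arrays, and 29 lower with the 60th percentile as limit. Counting genes in place of probe sets gave fewer by construction. By the brightest probe set these were 1 and 6 in Lu139, 23 and 95 in NCI-H209 (49 and 217 probe sets) and 2728 and 7529 between lines (6296 and 15977 probe sets). By the mean of probe sets they were 1 and 3, 13 and 43, and 2533 and 7232. Quantile normalization gave 11712 and 10224 between lines. The fit already sets each siTTF-1 array against the siNTC array of its line, and the labels carry no replicate numbers for another pairing.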
